A study of Rattus norvegicus with 64 samples.

Results

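The genes described here are 9 transcripts of meningeal fibroblasts that do not encode collagens: Lum, Dcn, Fmod, Slc6a20, Igfbp6, Wisp2, Pappa2, Fn1 and Ogn. They were listed by name, and several of them were chosen by their lower level under doxorubicin than under vehicle in the hippocampus of ApoE3 rats in these same data. Of the 9 genes, 8 had a row by symbol among the 32551 gene identifiers of the count tables. Ogn had no row under its symbol and is named without values. RNA sequencing had been run on total RNA from the hippocampus and the cortex of 32 rats, which gave 64 libraries. Doxorubicin (DOXO), an anthracycline chemotherapy drug, had been given at 2 mg/kg per week over 4 weeks from 5 weeks of age, and tissue was collected 5 to 6 weeks after the last dose. Controls received phosphate-buffered saline (PBS).

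Each group held 8 libraries from 4 females and 4 males. In hippocampus (HPC) the groups were ApoE4 rats given DOXO, ApoE4 rats given PBS, ApoE3 rats given DOXO and ApoE3 rats given PBS, and the same 4 groups were taken from cortex (CE). All rats carried ApoE3 or ApoE4, forms of the lipid carrier apolipoprotein E. The labels used here name no strain and no promoter for these alleles. Rats of 1 genotype, sex and treatment were numbered in a single run, with no rat of another group between them, so a batch that follows the numbering cannot be told apart from those factors.

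Totals per library ran from 10836181 to 20397553 counts, with a median of 14476534, and spike-in RNA took 0.932% to 2.44% of them. Levels of the genes are given as CPM (counts scaled to a common library total) after TMM scaling over the 64 libraries, and sums over marker lists as CPM of all gene counts without that scaling. Neither is corrected for transcript length, so that levels were compared between libraries and never between genes. Markers followed the dissection: 3 genes of hippocampal granule and pyramidal cells summed to 327 to 586 CPM in hippocampus and to 138 to 299 CPM in cortex, and 5 genes of cortical neurons summed to 83.8 to 156 CPM in hippocampus and to 302 to 378 CPM in cortex. One library stood apart for the genes described here. It was the hippocampus of ApoE4 DOXO rat 10, which had the highest level of its group for all 8 genes, and values without it, an alternative chosen after seeing the data for all but the effect of DOXO itself, stand beside most results that use it.

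Meningeal fibroblasts are the matrix-producing cells of the dura, arachnoid and pia, and related fibroblasts follow larger vessels into the brain. They lay down collagen together with small leucine-rich proteoglycans, secreted proteins with leucine-rich repeats that bind collagen fibrils and set their spacing. Lumican (Lum), decorin (Dcn), fibromodulin (Fmod) and osteoglycin (Ogn) belong to that family. Slc6a20 encodes a sodium-dependent transporter of proline and related imino acids. Igfbp6 is a binding protein with a preference for insulin-like growth factor 2, and Pappa2 is a protease that cleaves binding proteins of that axis and so frees the growth factor. Wisp2, now named Ccn5, is a secreted matricellular protein of the CCN family, and Fn1 is fibronectin, a matrix glycoprotein bound by integrins. The libraries are from whole tissue pieces. Fewer fibroblasts, less RNA per fibroblast and RNA of these genes from other cells cannot be told apart in any result here.

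The starts of Lum, Fmod, Slc6a20 and Igfbp6 are shown because Lum, Fmod and Slc6a20 rose in ApoE4 against ApoE3 cortex of PBS rats while Igfbp6 fell; in DOXO rats only the fall of Igfbp6, of these 4, passed. The 250 bases before each gene start are from RefSeq (GRCr8), 5′ to 3′ in the direction of the gene, for Lum at chr7:34245456-34245705 (plus strand), Fmod at chr13:48045317-48045566 (plus strand), Slc6a20 at chr8:132199901-132200150 (minus strand, listed there as Slc6a20a) and Igfbp6 at chr7:135154669-135154918 (plus strand). Capitals mark matches on either strand to the motifs searched.
Lum: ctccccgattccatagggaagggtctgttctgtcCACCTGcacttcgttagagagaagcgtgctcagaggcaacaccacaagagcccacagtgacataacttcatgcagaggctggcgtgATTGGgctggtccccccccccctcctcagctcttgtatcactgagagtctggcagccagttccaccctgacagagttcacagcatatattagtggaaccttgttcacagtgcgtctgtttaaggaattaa
Fmod: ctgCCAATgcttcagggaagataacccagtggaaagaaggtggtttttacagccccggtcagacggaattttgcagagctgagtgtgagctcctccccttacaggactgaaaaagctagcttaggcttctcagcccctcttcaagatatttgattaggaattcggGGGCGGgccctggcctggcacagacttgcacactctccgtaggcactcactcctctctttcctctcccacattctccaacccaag
Slc6a20: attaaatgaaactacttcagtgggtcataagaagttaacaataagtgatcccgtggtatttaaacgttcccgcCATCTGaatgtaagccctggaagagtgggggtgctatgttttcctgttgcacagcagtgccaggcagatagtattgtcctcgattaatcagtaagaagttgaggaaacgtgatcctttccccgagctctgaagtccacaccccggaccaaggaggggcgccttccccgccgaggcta
Igfbp6: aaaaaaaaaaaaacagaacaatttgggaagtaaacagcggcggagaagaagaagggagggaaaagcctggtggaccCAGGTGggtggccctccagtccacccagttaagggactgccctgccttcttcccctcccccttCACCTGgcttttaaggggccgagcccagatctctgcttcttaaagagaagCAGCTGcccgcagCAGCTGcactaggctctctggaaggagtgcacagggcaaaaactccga

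Of the 9 genes, 6 had a sequence in the table used. The motifs searched on both strands were TATAAA (the TATA box), CCAAT (the CCAAT box), GGGCGG (a GC box), TGANTCA (bound by AP-1 factors), CATTCC (bound by TEAD factors) and CANNTG (the E-box), and none of these lies wholly inside another. Igfbp6 had 4 E-box matches in this window, Slc6a20 and Lum had 1 each, and Fmod had 0. An E-box match was present in 5 of the 6 windows, against 65.5% of 33469 promoters of the same length. CCAAT was present in 3 of the 6, against 34.0% of all. GGGCGG was found in Fmod alone among the 6, against 30.5% of all promoters. TATAAA was found in Ogn alone, against 12.9%, and so was CATTCC, against 12.1%, while TGANTCA was found in 0 of the 6, against 6.34%. A match describes the letters of the window and is no evidence of binding. In the same RefSeq annotation, Dcn, Lum, Kera and Epyc lie next to each other, Fmod lies beside Prelp and Optc, and Ogn lies near Omd and Aspn, all of them genes of the proteoglycan family. Slc6a20a lies beside its paralogue Slc6a20b, which had no row by symbol, so the division of reads between the pair is uncertain.

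The proteoglycans come first. Lum in ApoE4 hippocampus ran from 8.30 to 35.2 CPM with a median of 11.2 CPM in DOXO rats, and from 7.04 to 19.7 CPM with a median of 9.42 CPM in PBS rats. Lum in ApoE3 hippocampus ran from 3.67 to 8.33 CPM with a median of 5.37 CPM in DOXO rats, and from 4.90 to 26.4 CPM with a median of 10.3 CPM in PBS rats. In ApoE3 hippocampus all 8 DOXO libraries lay below the PBS median, although the groups overlapped. Lum in ApoE4 cortex ran from 2.84 to 6.99 CPM with a median of 3.59 CPM in DOXO rats, and from 2.54 to 8.11 CPM with a median of 5.06 CPM in PBS rats. Lum in ApoE3 cortex ran from 2.00 to 5.62 CPM with a median of 2.70 CPM in DOXO rats, and from 1.58 to 3.98 CPM with a median of 2.48 CPM in PBS rats. Lum was higher in hippocampus than in cortex of the same animal in all 8 rats of each of the 4 genotype and treatment groups.

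Dcn in ApoE4 hippocampus ran from 10.1 to 56.7 CPM with a median of 16.0 CPM in DOXO rats, and from 11.3 to 54.4 CPM with a median of 18.1 CPM in PBS rats. Dcn in ApoE3 hippocampus ran from 13.4 to 24.5 CPM with a median of 19.3 CPM in DOXO rats, and from 17.9 to 46.2 CPM with a median of 33.5 CPM in PBS rats. Here too all 8 ApoE3 DOXO libraries lay below the PBS median, and 4 of them lay below every PBS library. Dcn in ApoE4 cortex ran from 6.12 to 15.7 CPM with a median of 8.89 CPM in DOXO rats, and from 6.44 to 14.4 CPM with a median of 12.0 CPM in PBS rats. Dcn in ApoE3 cortex ran from 5.93 to 18.5 CPM with a median of 12.1 CPM in DOXO rats, and from 5.19 to 16.0 CPM with a median of 8.17 CPM in PBS rats. The cortical groups of Dcn overlapped widely, and its hippocampal level was above its cortical level in 29 of the 32 rats.

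Fmod in ApoE4 hippocampus ran from 4.37 to 73.0 CPM with a median of 5.96 CPM in DOXO rats, and from 3.89 to 45.5 CPM with a median of 15.1 CPM in PBS rats. Fmod in ApoE3 hippocampus ran from 3.60 to 27.8 CPM with a median of 5.55 CPM in DOXO rats, and from 4.26 to 49.8 CPM with a median of 19.5 CPM in PBS rats. PBS hippocampus of both genotypes was spread over more than 10-fold, with high and low libraries side by side, and 7 of 8 ApoE4 DOXO libraries and 6 of 8 ApoE3 DOXO libraries lay below the PBS median. Fmod in ApoE4 cortex ran from 5.22 to 23.0 CPM with a median of 9.36 CPM in DOXO rats, and from 5.76 to 23.5 CPM with a median of 16.0 CPM in PBS rats. Fmod in ApoE3 cortex ran from 5.56 to 23.1 CPM with a median of 9.89 CPM in DOXO rats, and from 6.50 to 10.8 CPM with a median of 7.80 CPM in PBS rats. The ApoE3 PBS cortices were close together for Fmod, and 7 of 8 ApoE4 PBS cortices lay above their median.

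The imino acid transporter follows. Slc6a20 in ApoE4 hippocampus ran from 8.88 to 209.8 CPM with a median of 12.9 CPM in DOXO rats, and from 10.9 to 122 CPM with a median of 19.4 CPM in PBS rats. Slc6a20 in ApoE3 hippocampus ran from 9.95 to 36.1 CPM with a median of 11.5 CPM in DOXO rats, and from 11.5 to 136 CPM with a median of 54.3 CPM in PBS rats. Rat 10 alone accounted for the ApoE4 DOXO maximum, since the next library was at 15.7 CPM, and 7 of 8 ApoE4 DOXO libraries lay below the PBS median. Slc6a20 in ApoE4 cortex ran from 11.2 to 66.7 CPM with a median of 24.8 CPM in DOXO rats, and from 18.2 to 49.2 CPM with a median of 39.6 CPM in PBS rats. Slc6a20 in ApoE3 cortex ran from 14.6 to 55.8 CPM with a median of 24.9 CPM in DOXO rats, and from 14.8 to 24.8 CPM with a median of 20.6 CPM in PBS rats. In cortex the highest Slc6a20 level of the DOXO groups was that of rat 31 in ApoE4 and of rat 72 in ApoE3.

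Group medians of the pair of growth factor axis genes lay farthest apart, 9.44-fold from highest to lowest for Igfbp6 and 8.03-fold for Pappa2. Igfbp6 in ApoE4 hippocampus ran from 1.55 to 12.5 CPM with a median of 2.32 CPM in DOXO rats, and from 1.16 to 8.07 CPM with a median of 2.36 CPM in PBS rats. Igfbp6 in ApoE3 hippocampus ran from 3.59 to 5.80 CPM with a median of 4.36 CPM in DOXO rats, and from 4.81 to 15.3 CPM with a median of 8.60 CPM in PBS rats. In ApoE3 hippocampus 5 of 8 DOXO libraries lay below every PBS library. Igfbp6 in ApoE4 cortex ran from 3.31 to 7.70 CPM with a median of 4.52 CPM in DOXO rats, and from 3.84 to 6.38 CPM with a median of 5.10 CPM in PBS rats. Igfbp6 in ApoE3 cortex ran from 16.0 to 21.8 CPM with a median of 20.9 CPM in DOXO rats, and from 16.9 to 24.8 CPM with a median of 21.9 CPM in PBS rats. No ApoE4 cortex reached the level of any ApoE3 cortex for Igfbp6. Cortex groups of the 2 genotypes did not overlap for 2.15% of genes in DOXO rats and 2.12% in PBS rats. Pappa2 in ApoE4 hippocampus ran from 0.809 to 16.2 CPM with a median of 1.50 CPM in DOXO rats, and from 0.660 to 8.87 CPM with a median of 1.10 CPM in PBS rats. Pappa2 in ApoE3 hippocampus ran from 0.770 to 1.93 CPM with a median of 1.04 CPM in DOXO rats, and from 1.01 to 11.8 CPM with a median of 3.90 CPM in PBS rats. The ApoE3 DOXO hippocampi of Pappa2 all lay below the PBS median. Pappa2 in ApoE4 cortex ran from 5.71 to 10.7 CPM with a median of 8.37 CPM in DOXO rats, and from 3.54 to 9.78 CPM with a median of 7.24 CPM in PBS rats. Pappa2 in ApoE3 cortex ran from 5.17 to 10.2 CPM with a median of 6.57 CPM in DOXO rats, and from 4.67 to 9.48 CPM with a median of 6.62 CPM in PBS rats. Pappa2 in cortex lay above the hippocampal level of the same animal in 28 of 32 rats.

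Wisp2 in ApoE4 hippocampus ran from 0.618 to 9.22 CPM with a median of 0.829 CPM in DOXO rats, and from 0.462 to 3.68 CPM with a median of 1.07 CPM in PBS rats. Wisp2 in ApoE3 hippocampus ran from 0.533 to 1.84 CPM with a median of 1.17 CPM in DOXO rats, and from 1.13 to 9.17 CPM with a median of 3.27 CPM in PBS rats. Wisp2 had between 7 and 155 counts in a hippocampal library, which limits its precision, and all 8 ApoE3 DOXO libraries lay below the PBS median. Wisp2 in ApoE4 cortex ran from 1.34 to 2.84 CPM with a median of 1.52 CPM in DOXO rats, and from 1.17 to 3.26 CPM with a median of 2.15 CPM in PBS rats. Wisp2 in ApoE3 cortex ran from 1.39 to 5.21 CPM with a median of 2.34 CPM in DOXO rats, and from 1.64 to 2.94 CPM with a median of 2.22 CPM in PBS rats. Its cortical groups overlapped. Fn1 in ApoE4 hippocampus ran from 31.9 to 170.0 CPM with a median of 38.6 CPM in DOXO rats, and from 33.8 to 106 CPM with a median of 41.6 CPM in PBS rats. Fn1 in ApoE3 hippocampus ran from 34.2 to 63.2 CPM with a median of 39.0 CPM in DOXO rats, and from 33.5 to 132 CPM with a median of 57.8 CPM in PBS rats. For Fn1, 7 of 8 ApoE3 DOXO hippocampi lay below the PBS median. Fn1 in ApoE4 cortex ran from 34.5 to 83.2 CPM with a median of 45.4 CPM in DOXO rats, and from 34.3 to 77.3 CPM with a median of 59.0 CPM in PBS rats. Fn1 in ApoE3 cortex ran from 32.2 to 82.4 CPM with a median of 48.2 CPM in DOXO rats, and from 27.1 to 47.0 CPM with a median of 40.0 CPM in PBS rats. Fn1 had the narrowest range of group medians, 1.53-fold from highest to lowest.

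Ordered by median, the 8 groups of each gene formed 7 pairs of neighbours. For 7 of the genes the ranges of every pair of neighbours overlapped. The exception was Igfbp6, for which the ApoE3 DOXO cortices all lay above the ApoE3 PBS hippocampi, the next group down. ApoE3 PBS hippocampus had the highest median for Dcn, Fmod, Slc6a20 and Wisp2. ApoE3 DOXO hippocampus had the lowest for Fmod, Slc6a20 and Pappa2, and ApoE4 DOXO hippocampus for Igfbp6, Wisp2 and Fn1. Within groups the 8 genes varied more than most genes: the median coefficient of variation of the 8 was 0.653 in ApoE3 PBS hippocampus, against 0.111 for all genes, and 0.184 in ApoE3 PBS cortex, against 0.111 for all genes.

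**Figure D1:**
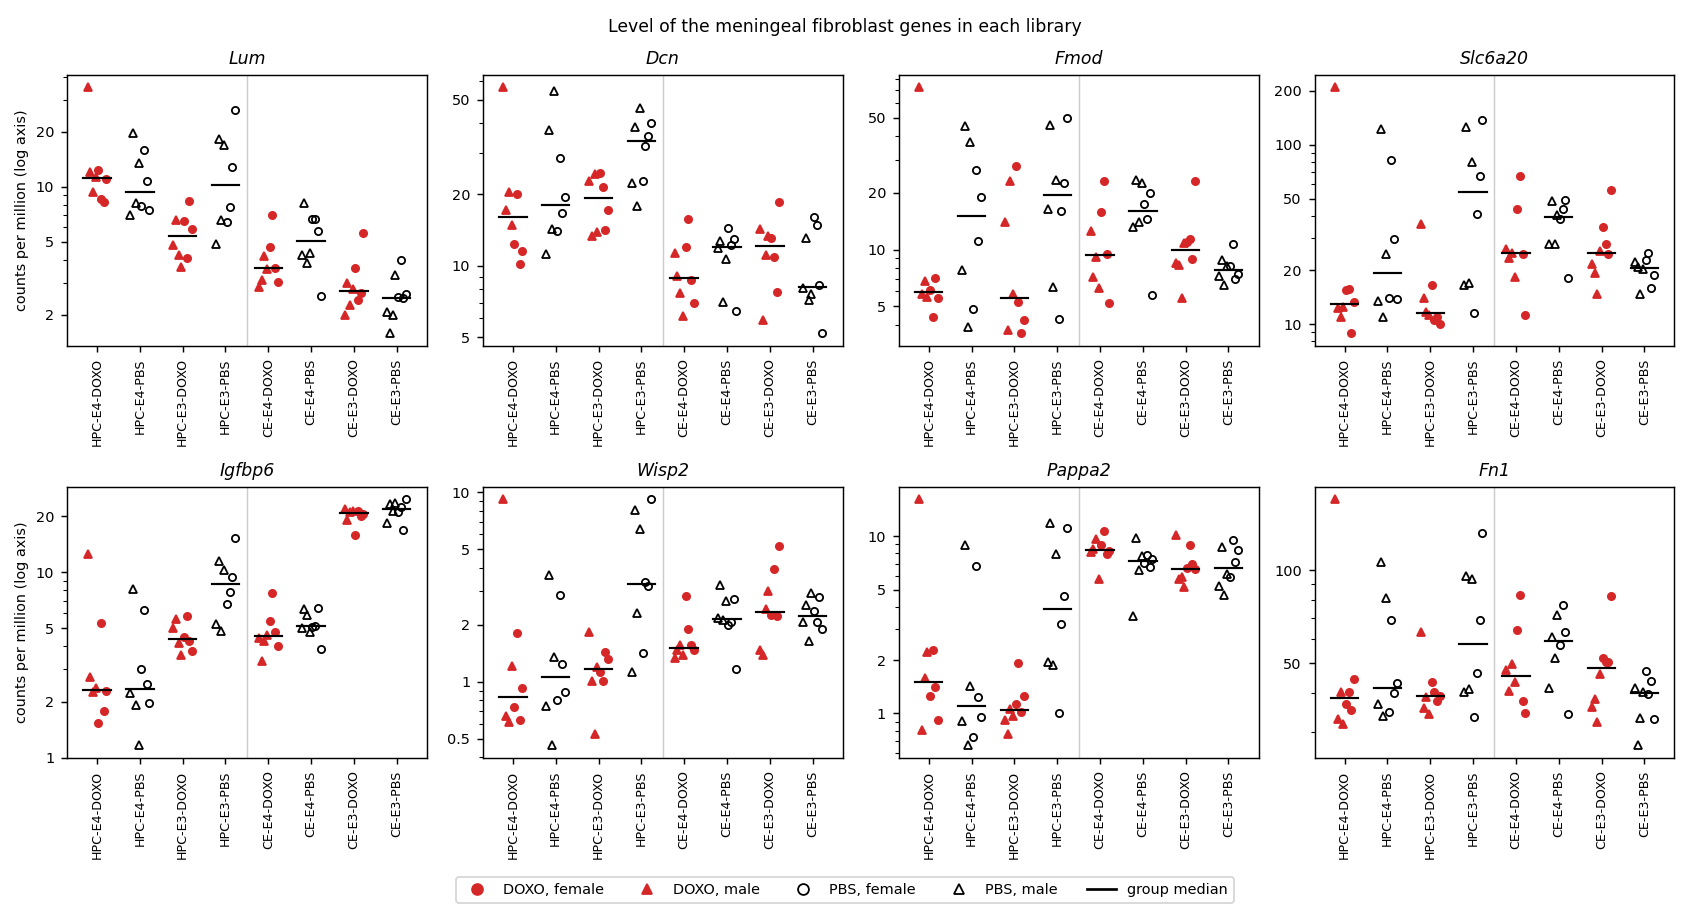
CPM (log axis) of each gene in every library, by group; filled red symbols are DOXO rats, open black symbols PBS rats, circles females, triangles males and lines group medians. ApoE4 DOXO rat 10 is the single high point in the first column of every panel, and the Igfbp6 panel shows both ApoE4 cortex groups apart from both ApoE3 cortex groups.

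DOXO rats were set against PBS rats of the same genotype, region by region, which asks how the drug altered the tissue weeks after dosing. ApoE3 hippocampus is the contrast on which several of the genes were chosen, so its values are a description and no test is given. All 8 genes were lower in DOXO rats, where 49.3% of the 14899 genes tested were. Pappa2 differed by -2.25 (SE 0.46) on the log2 scale, Slc6a20 by -2.06 (SE 0.48) and Wisp2 by -1.87 (SE 0.41). The proteoglycans differed by -1.17 (SE 0.31) for Lum, -1.07 (SE 0.53) for Fmod and -0.75 (SE 0.19) for Dcn. Igfbp6 differed by -0.94 (SE 0.20) and Fn1 by -0.73 (SE 0.25). The median over the 8 was -1.12, against 0.0015 over all genes. Groups that do not overlap were found for 0.0189% of 15885 genes and for 0 of the 8.

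In the same libraries markers of neighbouring cell types also differed. This is the contrast of the choice, and several of these lists vary with the 8 genes in hippocampus, so the counts are a description. Of all genes 49.3% were lower there. Among 44 other meningeal fibroblast and arachnoid genes, 42 were lower in DOXO rats, with a median of -0.90. Of 6 fibrillar and microfibrillar collagens 6 were lower (median -1.06), as were 4 of 4 border macrophage markers (median -1.04) and 9 of 9 endothelial markers (median -0.36). Of 10 pericyte and smooth muscle markers 8 were lower (median -0.13), and their summed level had a median of 243 CPM in DOXO rats and 372 CPM in PBS rats. All 8 choroid plexus markers tested had a fitted change above 0, with a median of 1.83. Summed over the list, DOXO rats 51 and 65 had 6661 and 5518 CPM, where the other 6 DOXO libraries had 9.36 to 56.0 CPM. By group median the sum was lower in DOXO rats, 19.7 CPM, against 105 CPM in PBS rats. The summed collagens ranged from 147 to 201 CPM in DOXO rats and from 166 to 501 CPM in PBS rats. Their part in the lower values was not tested.

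In ApoE4 hippocampus, which was not used for the choice, none of the 8 genes passed an adjusted p of 0.05 in edgeR's quasi-likelihood test with Benjamini-Hochberg adjustment over 14873 genes, where 0% of genes passed. An unadjusted p under 0.05 was reached by 0 of the 8, against 7.38% of genes, and DESeq2 called 0 of the 8 as well. With all libraries 4 genes were higher and 4 lower, and with scaling by spike-in RNA 6 were higher and 2 lower; 53% of all genes were below 0 with all libraries. The log2 change was 0.22 (SE 0.29) for Lum, -0.32 (SE 0.34) for Dcn and -0.69 (SE 0.62) for Fmod. It was -0.39 (SE 0.73) for Slc6a20, 0.14 (SE 0.47) for Igfbp6 and 0.12 (SE 0.70) for Pappa2. Wisp2 gave 0.28 (SE 0.60) and Fn1 -0.083 (SE 0.34). These values rest on DOXO rat 10.

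Without DOXO rat 10 all 8 genes were lower in DOXO rats of ApoE4 hippocampus. The changes were then -1.66 (SE 0.45) for Fmod and -1.59 (SE 0.51) for Slc6a20, with adjusted p = 0.235 and 0.264 in edgeR, so neither passed. Pappa2 gave -0.80 (SE 0.58), Wisp2 -0.66 (SE 0.42) and Dcn -0.64 (SE 0.29). Fn1 gave -0.54 (SE 0.23), Igfbp6 -0.37 (SE 0.39) and Lum -0.10 (SE 0.21). The median of the 8 moved to -0.65, against 0.017 with all libraries, and 4 of the 8 had an unadjusted p under 0.05, against 13% of genes. Over the other 15 libraries left out in turn, 2 to 6 of the 8 were lower and 0 had an unadjusted p under 0.05. Rat 10 also held the most collagen RNA of its group, 739.9 CPM over 6 genes, where the other 7 DOXO libraries had 152 to 176 CPM. PBS rats of this genotype were spread as well, from 142 to 516 CPM. In the authors' deposited table the log2 change was -1.56 for Slc6a20, -0.86 for Pappa2, -0.65 for Wisp2, -0.45 for Fmod and -0.26 for Dcn. The authors' deposited table gave -0.042 for Fn1, 0.19 for Igfbp6 and 0.26 for Lum, and its lowest adjusted p among the 8 was 0.315, for Slc6a20. In that table Slc6a20, Pappa2 and Wisp2 lay nearer to the values without rat 10, and the other 5 nearer to those with it. Choroid plexus markers were lower in DOXO rats for 9 of 9 genes, with a median of -2.89. Their sum was highest in PBS rats 7 and 26, at 13059 and 6199.7 CPM, and its group median was 50.4 CPM in DOXO rats and 138 CPM in PBS rats. Their part was not tested.

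In ApoE3 cortex 7 of the 8 genes were higher and 1 lower in DOXO rats, where 50.1% of all genes were lower, and none passed the adjusted threshold in edgeR, where 0% of 14775 genes passed. An unadjusted p under 0.05 was found for 3 of the 8, against 9.25% of all genes. These were Slc6a20, at 0.44 (SE 0.17) with adjusted p = 0.432, Fmod, at 0.43 (SE 0.18) with adjusted p = 0.479, and Fn1, at 0.32 (SE 0.12) with adjusted p = 0.420. DESeq2 called 0 of the 8. Igfbp6, at -0.085 (SE 0.078), was the gene below 0, and with spike-in scaling all 8 were above 0. DOXO rat 72 was the highest library of its group for 6 of the 8 genes and for the summed collagens, at 292 CPM, and without it the median of the 8 was 0.12, against 0.25 with it. Of the 43 other meningeal genes 39 were higher, with a median of 0.16 and 0 passed.

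In ApoE4 cortex 7 of the 8 genes were lower in DOXO rats, as were 50.2% of all genes, and Pappa2 was higher at 0.25 (SE 0.14). Compared with ApoE3 cortex, 6 genes had the other sign, and Igfbp6 was below 0 and Pappa2 above 0 in both. None passed in edgeR, where 0% of 14838 genes passed, and DESeq2 called 0 of the 8. An unadjusted p under 0.05 was found for Fmod, at -0.59 (SE 0.26) with adjusted p = 0.529, and for Wisp2, at -0.43 (SE 0.20) with adjusted p = 0.549, which is 2 of 8 against 8.82% of all genes. Lum gave -0.41 (SE 0.21), Slc6a20 -0.34 (SE 0.25) and Dcn -0.20 (SE 0.17). Fn1 gave -0.20 (SE 0.16) and Igfbp6 -0.16 (SE 0.15). With spike-in scaling 6 were lower and 2 higher. DOXO rat 31 was the highest library for 7 of the 8 genes, and without it the median of the 8 was -0.40, against -0.27 with it, and 6 had an unadjusted p under 0.05, against 11.8% of genes. The count was 0 in 6 of the 16 fits that left out 1 library, those without PBS rat 7 or 24 or without DOXO rat 11, 13, 32 or 34, and the median ran from -0.40 to -0.17 over the 16. Spike-in scaling moved the median of all genes by 0.16 to 0.31 across the 4 comparisons, so the directions above are relative to the bulk of genes.

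**Figure D2:**
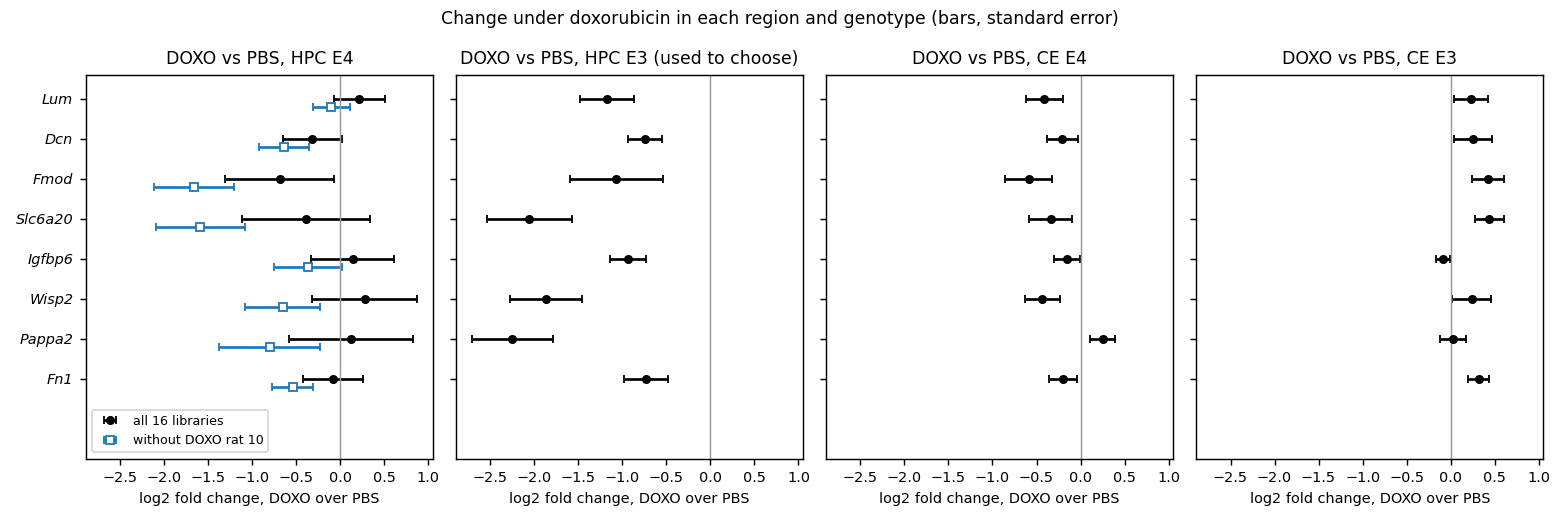
Log2 fold change of DOXO over PBS for each gene (points) with its standard error (bars), from 16 libraries per panel. Filled points in the first panel use all libraries and open squares leave out DOXO rat 10, which moves Fmod to -1.66 and Slc6a20 to -1.59; the ApoE3 hippocampus panel is the contrast on which genes were chosen.

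The effect of DOXO in ApoE4 cortex minus that in ApoE3 cortex was tested in a fit of 32 cortical libraries. It was below 0 for 7 of the 8 genes and for 51% of all genes, with -1.04 (SE 0.36) for Fmod, -0.79 (SE 0.33) for Slc6a20 and -0.70 (SE 0.31) for Wisp2. The gene above 0 was Pappa2 at 0.23 (SE 0.22). An unadjusted p under 0.05 was reached by 5 of the 8, against 5.45% of 15315 genes. None passed after adjustment in edgeR, where 0% of genes passed and the adjusted p of those 5 was 0.879, and DESeq2 called 0 of the 8. Without rat 72 the count at an unadjusted p under 0.05 was 1, against 4.26% of genes, and without rat 31 it was 5, against 7.12%. In hippocampus, where the ApoE3 libraries are those of the choice, the same difference is a description: all 8 values were above 0, where 50.8% of all genes were below 0, from 0.46 for Dcn to 2.45 for Pappa2, with a median of 1.28. Without ApoE4 DOXO rat 10 the median was 0.52, and 7 were above 0, where 51.4% of all genes were below 0. Fmod turned to -0.61, and Dcn was at 0.078, Fn1 at 0.17 and Pappa2 at 1.43.

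In PBS cortex 5 of the 8 genes passed between ApoE4 and ApoE3 in edgeR, 4 higher and 1 lower in ApoE4, where 18.2% of 15315 genes passed. Igfbp6 fell in ApoE4: it averaged 5.31 ± 0.866 CPM in ApoE4 rats and 21.5 ± 2.69 CPM in ApoE3 rats (SD, n = 8 each), and the groups did not overlap, which held for 2.12% of genes. Its log2 change was -2.02 (SE 0.11) with adjusted p = 3.14e-16, and all 8 ApoE4 rats lay below the ApoE3 median. Lum rose, averaging 5.28 ± 1.84 CPM in ApoE4 rats and 2.56 ± 0.767 CPM in ApoE3 rats (SD, n = 8 each), at 1.05 (SE 0.21) with adjusted p = 0.000545, higher in 8 of 8 ApoE4 rats than the ApoE3 median. Fmod rose as well, averaging 16.4 ± 5.81 CPM in ApoE4 rats and 8.01 ± 1.34 CPM in ApoE3 rats (SD, n = 8 each), at 1.05 (SE 0.25) with adjusted p = 0.00349. The other proteoglycan with values, Dcn, gave 0.14 (SE 0.21) with adjusted p = 0.706 and did not pass.

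Slc6a20 averaged 36.9 ± 11.1 CPM in ApoE4 rats and 20.0 ± 3.39 CPM in ApoE3 rats (SD, n = 8 each), a rise of 0.88 (SE 0.24) with adjusted p = 0.00864. Fn1 averaged 57.2 ± 14.4 CPM in ApoE4 rats and 38.2 ± 6.55 CPM in ApoE3 rats (SD, n = 8 each), a rise of 0.58 (SE 0.16) with adjusted p = 0.00984. For Fmod, Slc6a20 and Fn1, 7 of the 8 ApoE4 rats lay above the ApoE3 median. Wisp2, at -0.012 (SE 0.22), and Pappa2, at 0.037 (SE 0.15), did not pass. Leaving out any 1 of the 16 PBS libraries kept the count at 5.

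A fit of the 16 DOXO cortices, chosen after the PBS values had been seen, gave the same contrast in treated rats. Igfbp6 was again lower, averaging 4.81 ± 1.32 CPM in ApoE4 rats and 20.2 ± 1.92 CPM in ApoE3 rats (SD, n = 8 each). Its log2 change was -2.09 (SE 0.12) with adjusted p = 1.50e-11 in edgeR. The groups again did not overlap, which held for 2.15% of genes. Wisp2 fell by 0.70 with adjusted p = 0.0323, averaging 1.69 ± 0.495 CPM in ApoE4 rats and 2.74 ± 1.29 CPM in ApoE3 rats (SD, n = 8 each). Lum gave 0.40 (SE 0.19), Fmod 0.0046 (SE 0.24), Slc6a20 0.093 (SE 0.24) and Fn1 0.056 (SE 0.15), and none of these passed. In all 2 of 8 passed, where 14.1% of 14877 genes did. The difference between the PBS and the DOXO contrast is the genotype by treatment term given above, which passed for none of the 8.

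In PBS hippocampus the contrast shares the ApoE3 libraries of the choice and is a description. All 8 genes were lower in ApoE4, as were 50.2% of all genes, with Wisp2 at -1.54 (SE 0.52), Igfbp6 at -1.40 (SE 0.38) and Pappa2 at -1.02 (SE 0.60). Igfbp6 averaged 3.39 ± 2.43 CPM in ApoE4 rats and 8.88 ± 3.48 CPM in ApoE3 rats there (SD, n = 8 each). Genes around Igfbp6 in the annotation were looked up after the Igfbp6 values had been seen. Csad, which follows Soat2 there, gave -0.16 (SE 0.078) in PBS hippocampus, as a description. In PBS cortex Csad gave -0.40 with adjusted p = 0.000158 in edgeR, where 18.2% of 15315 genes passed. Spryd3, Tns2 and Znf740 did not pass in PBS cortex, with log2 changes of -0.018, 0.10 and 0.052, and Soat2 had no row by symbol.

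Lists of related genes were counted in the same fit of ApoE4 against ApoE3 PBS cortex, and their counts are to be read against the 18.2% of all genes that passed there in either direction. Of 44 other meningeal fibroblast and arachnoid genes 12 passed as higher and 1 as lower, with a median log2 change of 0.41. They included Lamc3, a laminin chain of basement membranes, at 1.05 (adjusted p = 4.70e-06), Thbs2, a matricellular thrombospondin, at 1.14 (adjusted p = 0.00149), and the transcription factor gene Tbx18 at 1.01 (adjusted p = 0.000495). Of 6 other proteoglycans 1 rose, Bgn (biglycan) at 0.52 (adjusted p = 0.0122). In the insulin-like growth factor axis 5 of 12 genes rose and 0 fell. The ligand Igf2 rose by 1.23 (adjusted p = 0.00410), and the receptors Igf2r and Insr by 0.29 (adjusted p = 5.20e-05) and 0.24 (adjusted p = 7.10e-06). Among fibronectin receptors and partners 6 of 15 rose and 0 fell, with Itgb8 at 0.63 (adjusted p = 1.72e-06) and Tgm2, a crosslinking transglutaminase, at 0.72 (adjusted p = 0.000639). In the CCN family Nov rose by 0.49 (adjusted p = 0.000202) and Ctgf fell, at -0.47 (adjusted p = 0.00761). Of 8 proline and glycine transporters 1 rose, which like the count for proteoglycans is near the share of all genes. All adjusted p are from edgeR over all genes, and the median over all genes was -0.0072.

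Markers of other vascular and border cells moved with them in the same libraries: 4 of 4 border macrophage markers passed as higher in ApoE4 (median 1.01), 6 of 9 endothelial markers (median 0.28), 4 of 11 pericyte and smooth muscle markers (median 0.45) and 3 of 6 collagens (median 0.40), and none of these lists had a gene that passed as lower. Of all genes 18.2% passed in this fit. The summed collagens ranged from 162 to 319 CPM in ApoE4 and from 152 to 196 CPM in ApoE3. Their part in the rise of Lum, Fmod, Slc6a20 and Fn1 was not tested. Igfbp6 went against these lists. In the other lists 1 of 8 choroid plexus markers and 3 of 7 astrocyte markers passed as higher, 4 of 7 microglial markers passed as lower and 1 as higher, and 3 of 7 neuron markers passed as lower.

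**Figure D3:**
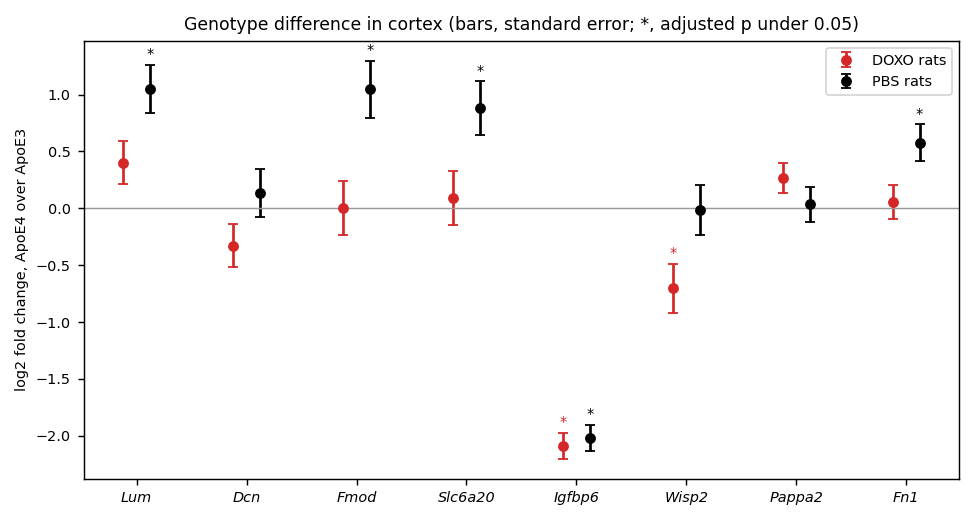
Log2 fold change of ApoE4 over ApoE3 in cortex for each gene (points) with its standard error (bars), in DOXO rats (red) and PBS rats (black); asterisks mark an adjusted p under 0.05. Igfbp6 lies near -2 in both treatments, and Lum, Fmod, Slc6a20 and Fn1 lie higher in PBS rats than in DOXO rats, a difference that did not pass its own test.

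Hippocampus was compared with cortex in ApoE4 rats given PBS, whose libraries took no part in the choice. Lum and Dcn rose in hippocampus, by 1.07 (SE 0.28) with adjusted p = 0.00169 and by 1.10 (SE 0.31) with adjusted p = 0.00348 in edgeR. Pappa2 fell, at -1.46 (SE 0.51) with adjusted p = 0.0182. The 3 of 8 that passed compare with 50.4% of 15432 genes. With the rat as a block, since both regions came from the same animals, Igfbp6 also passed, at -0.85 with adjusted p = 0.0200, against -0.68 (SE 0.36) and adjusted p = 0.116 without it. Under the block Slc6a20 turned to -0.40 and Fmod to -0.053, against 0.025 and 0.21 without it, and neither passed in either fit. Wisp2, at -0.61, and Fn1, at -0.077, did not pass. Igfbp6 passed as well without the hippocampus of PBS rat 3 or of PBS rat 22. Leaving out PBS rat 3 in hippocampus gave Pappa2 -1.97, and over all libraries left out its adjusted p stayed at or below 0.0437.

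In ApoE3 PBS rats, as a description, Lum was higher in hippocampus by 2.29 (SE 0.27) and Dcn by 1.67 (SE 0.22). Slc6a20 was higher by 1.63 (SE 0.38) and Fmod by 1.53 (SE 0.42), and Igfbp6 was lower, at -1.28 (SE 0.15). In all 6 of the 8 were higher and 2 lower, where 47.1% of all genes were lower. These values have no rat block. With the rat as a block the median of the 8 was 0.96, against 1.22 without it. The effect of DOXO in hippocampus minus that in cortex of ApoE4 rats passed for 0 of the 8 in edgeR, where 0% of genes passed. An unadjusted p under 0.05 was reached by 0 of the 8, against 3.59% of genes, and by 2 without the hippocampus of rat 10, against 4.99%. DESeq2 called 0 of the 8. In ApoE3 rats, as a description, the difference was below 0 for all 8 and for 50% of all genes, from -0.86 for Igfbp6 to -2.50 for Slc6a20.

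Sex was balanced in every group, and females were compared with males with treatment in the fit. For ApoE3 hippocampus the libraries are those of the choice, which was made on treatment. None of the 8 genes passed in any of the 4 tables in edgeR, where 0.121% of genes passed in ApoE4 hippocampus, 0.0873% in ApoE3 hippocampus, 0.108% in ApoE4 cortex and 0.562% in ApoE3 cortex. In ApoE3 cortex 4 of the 8 had an unadjusted p under 0.05, all higher in females, against 13.8% of genes. Fn1 gave 0.41 (SE 0.12) with adjusted p = 0.119 and passed where no filter on low counts was applied. The count was 2 without rat 72, a female, against 13.4% of genes. In ApoE4 hippocampus all 8 were lower in females, as were 51% of all genes, with 1 at an unadjusted p under 0.05, Dcn at -0.79 (SE 0.34), against 10.7% of genes. Without rat 10, a male, 6 were lower and 2 higher, where 51.9% of all genes were lower, and the count was 0, against 11.7%. In ApoE4 cortex all 8 were higher in females, where 48.2% of all genes were lower. In ApoE3 hippocampus and ApoE4 cortex 0 of the 8 had an unadjusted p under 0.05, against 5.04% and 6.76% of genes. DESeq2 called 0 of the 8 in each table.

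The effect of DOXO in females minus that in males passed for none of the 8 in the 3 tables tested. In ApoE3 cortex, where 2.57% of genes passed in edgeR, Slc6a20 gave 0.74 (SE 0.29) with adjusted p = 0.156. It was the 1 of 8 with an unadjusted p under 0.05, against 19.5% of genes, and 0 of the 8 reached that without rat 72, against 16.5%. In ApoE4 hippocampus all 8 differences were below 0 with rat 10, where 48.8% of all genes were, and all 8 were above 0 without it, where 46.1% of all genes were below 0. An unadjusted p under 0.05 was reached by 0 of the 8 there, against 3.49% of genes, and by 0 of the 8 in ApoE4 cortex, against 5.84%. The share of genes that passed was 0% in ApoE4 hippocampus and 0.00674% in ApoE4 cortex, and DESeq2 called 0 of the 8 in each of the 3.

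The 8 genes varied together over libraries. Log2 CPM was centred within the 16 cells of region, genotype, treatment and sex, which removes the group differences above, and Pearson's r was taken for the 28 pairs as a description. The points share library depth and the dissection of each tissue piece. Over 64 libraries the median r was 0.76, from 0.48 to 0.92, and Spearman's rho had a median of 0.64; without the hippocampus of rat 10 these medians were 0.68 and 0.57. In the 32 hippocampal libraries the median was 0.81, from 0.51 to 0.94, and without rat 10 it was 0.74, from 0.34 to 0.91. In the 32 cortical libraries it was 0.51, from 0.09 to 0.94. Without centring the median over 64 libraries fell to 0.53, from -0.42 to 0.90, and the lowest pair was Lum with Igfbp6.

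In hippocampus the tightest pairs were Slc6a20 with Fn1, at 0.94, and Slc6a20 with Wisp2, at 0.93. The loosest was Fmod with Igfbp6, at 0.51. Without rat 10 these pairs were at 0.91, 0.90 and 0.34. In cortex Fmod and Slc6a20 ran at 0.94, the highest of the 28, and Slc6a20 and Fn1 at 0.83. Pappa2 was the exception in cortex: its r with the other 7 genes lay between 0.09 and 0.30, with a median of 0.20, against a median of 0.84 in hippocampus, or 0.78 without rat 10. By genotype the median r was 0.85 in ApoE4 hippocampus, or 0.75 without rat 10, and 0.80 in ApoE3 hippocampus, and 0.73 in ApoE4 and 0.32 in ApoE3 cortex, where values ran from -0.50 for Pappa2 with Fn1 to 0.92 for Fmod with Slc6a20.

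**Figure D4:**
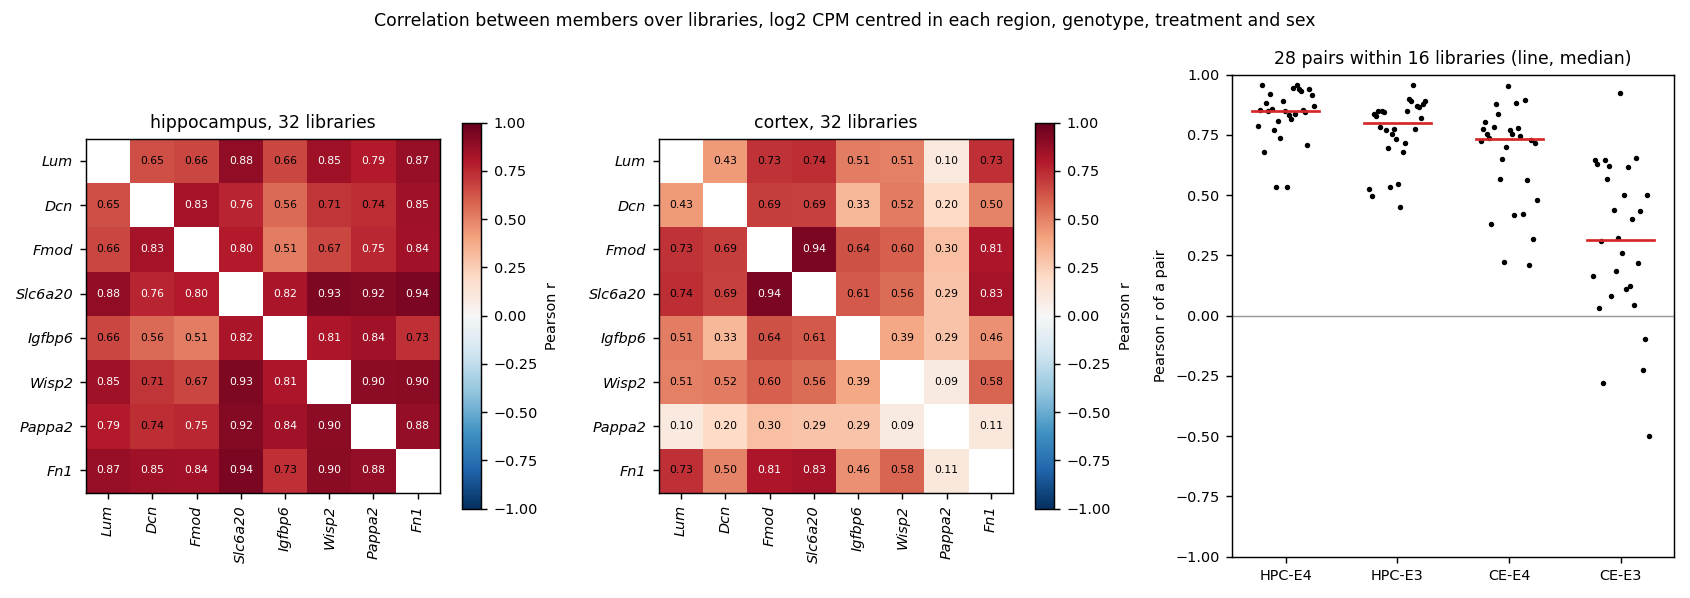
Pearson r between genes over the 32 hippocampal and the 32 cortical libraries (colour and number in each square), and the 28 pairs within each region and genotype of 16 libraries (points, with the median as a line). Squares of hippocampus are all at or above 0.51, and the Pappa2 row of cortex is the palest.

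Likeness of profile was ranked among other genes with a symbol, with placeholder names such as LOC or RGD left out. Over the 64 libraries those most like the mean of the 8 were, in order, Col1a1 (r = 0.96), Aebp1, Ptgds, Cp and Vim. Next came Col3a1, Abi3bp, Gjb2, Slc6a13 and Nid1 (r = 0.94). Over all 15877 other genes, named or not, the median r was -0.020, and 6.47% had an r over 0.5. The gene most like each one was Tfpi for Lum (0.83), Fstl1 for Dcn (0.82), Igf2 for Fmod (0.95), Slc6a13 for Slc6a20 (0.98) and Lhfpl6 for Igfbp6 (0.84). It was Fam129a for Wisp2 (0.88), Rbp4 for Pappa2 (0.87) and Kank2 for Fn1 (0.95). Without the hippocampus of rat 10 the first 10 were the same genes, from Col1a1 at 0.95 to Nid1 at 0.92, and the gene most like each one was the same for 7 of the 8; for Igfbp6 it was then Tpm2 (0.79).

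Marker lists placed these profiles. For each list the mean centred log2 CPM was correlated with each of the 8 genes, and the median r over the 8 is given. In hippocampus it was 0.90 for other meningeal fibroblast and arachnoid genes, 0.88 for border macrophages, 0.88 for collagens, 0.84 for endothelium and 0.83 for pericytes and smooth muscle. It was 0.20 for choroid plexus epithelium, 0.13 for ependyma, 0.26 for microglia, 0.20 for blood and 0.06 for bone and skull. Neurons had -0.41, oligodendrocytes 0.13 and astrocytes -0.00045. Without rat 10 the hippocampal values were 0.86 for the meningeal list, 0.86 for border macrophages, 0.84 for collagens, 0.78 for pericytes and smooth muscle, 0.77 for endothelium, 0.069 for choroid plexus epithelium and -0.21 for neurons. In cortex the values were 0.70 for collagens, 0.69 for the meningeal list, 0.63 for pericytes and smooth muscle, 0.62 for border macrophages and 0.53 for endothelium, and 0.28 for choroid plexus epithelium. By these medians the genes varied with markers of meninges, border macrophages and vessels, and less with those of choroid plexus. Single genes differed. In hippocampus r with choroid plexus ran from 0.032 to 0.68, and from -0.14 to 0.65 without rat 10. In cortex r ran from 0.28 to 0.96 for the meningeal list, from 0.28 to 0.96 for collagens and from -0.041 to 0.82 for pericytes and smooth muscle. It ran from -0.17 to 0.81 for endothelium and from -0.036 to 0.72 for border macrophages. The correlations do not separate meningeal from vascular fibroblasts, and no cell was sorted. Among pathway lists the hippocampal median was 0.68 for other proteoglycans, 0.65 for the insulin-like growth factor axis, 0.62 for fibronectin partners, 0.53 for other CCN genes and 0.11 for proline and glycine transporters. Without rat 10 these were 0.58 for other proteoglycans, 0.54 for the growth factor axis, 0.48 for fibronectin partners, 0.44 for other CCN genes and 0.21 for the transporters.

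The hippocampus and the cortex of the same rat were then compared, with levels centred within the 8 cells of genotype, treatment and sex. Pearson's r over 32 rats was 0.47 for Pappa2 (rho 0.46) and 0.45 for Igfbp6 (rho 0.41), with permutation p = 0.0310 and 0.0324 for r and 0.0126 and 0.0390 for rho (two-sided, 100000 resamples). Adjusted over all 15885 genes the p for r was 0.502 and 0.507, so neither passed, and 0.246% of genes did. At an unadjusted p under 0.05 the count was 2 of 8, against 8.84% of genes. Without the 2 rats farthest from the median in hippocampus, rats 10 and 3, r was 0.408 for Pappa2 and 0.430 for Igfbp6. Slc6a20 had an r of 0.25 and Dcn 0.24. Lum, Wisp2, Fmod and Fn1 lay between 0.047 and 0.11, near the median of all genes at 0.080. Rat 10, whose hippocampus was the highest of its group for all 8 genes, had the lowest cortical Lum of its group, 2.84 CPM, and its cortical Slc6a20 lay within the range of its group.

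**Figure D5:**
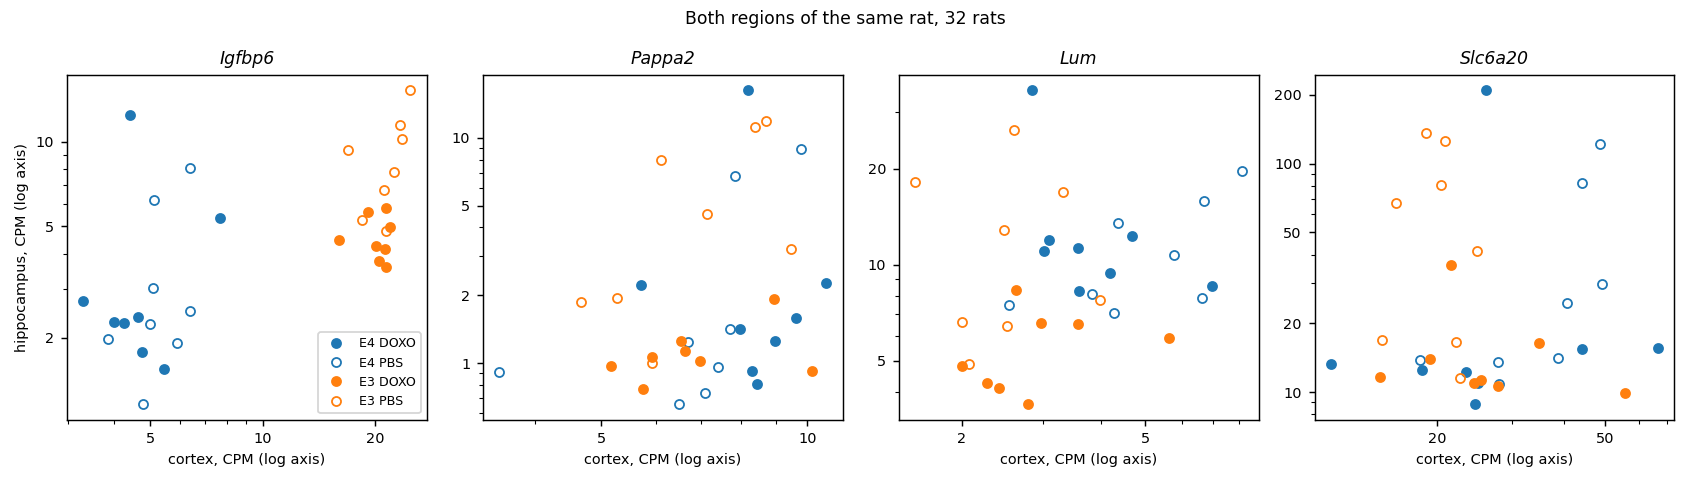
Level of Igfbp6, Pappa2, Lum and Slc6a20 in hippocampus against cortex of the same rat, in CPM on log axes, for 32 rats (blue ApoE4, orange ApoE3, filled DOXO, open PBS). In the Igfbp6 panel the genotypes separate along the cortical axis, and in the Slc6a20 panel the rat with the highest hippocampal level, rat 10, has an intermediate cortical level.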

How the data were processed

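RNA-seq counts per gene were deposited as 4 tables, 1 for each region and genotype, with 16 libraries each. Per the submitters' processing notes, reads were aligned with STAR 2.5.2b and tested with DESeq2, with no version given. The read counter, its strand setting and the genome build are not given in the sources used here. The authors' deposited comparison tables hold normalised counts (a signal in which each count is divided by a size factor for its library), log2 fold changes of DOXO against PBS and p-values with their adjustment. Every value was computed from the raw counts unless the authors' table is named.

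Spike-in rows were left out of library sizes and tests, and a row named ApoE3_donor was kept as a gene row. Counts were scaled by TMM after edgeR's filterByExpr and fitted with edgeR 4.0.16 (R 4.3.3, limma 3.58.1) by glmQLFit and glmQLFTest, with sex as a covariate (treatment, for the comparison of sexes) and Benjamini-Hochberg adjustment over all genes that passed the filter, at a threshold of 0.05. All 8 genes with a row passed the filter in every comparison. In the main set of fits, 14 comparisons were tested and 6 that use the ApoE3 hippocampus libraries were described. The comparison of sexes in ApoE3 hippocampus also uses those libraries and was tested, because sex was balanced against treatment. A further test, ApoE4 against ApoE3 in DOXO cortex, was added after the PBS values had been seen and is not among the 14. Alternatives were DESeq2 1.42.0, upper quartile and spike-in scaling, no filter, no sex covariate, leaving out each library, and the rat as a block. Regions are paired because the hippocampus and cortex with the same rat number came from the same animal. Correlations used log2 CPM with a prior count of 1. The fits were tested on simulated data.

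The members and the lists were chosen with earlier results of these data known. All 8 genes with a row were counted in every comparison, and several comparisons print values for only some of them. For each list up to 4 genes of smallest p could be named, and for likeness the 10 named genes of highest r. Totals of 10836181 to 20397553 counts set the counting error, and the labels give each library's rat and nothing on litters or batches.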

Additional observations from a re-analysis of the deposited data

Results flagged for a closer look

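Within groups of 8 libraries the gap between the highest or lowest library and its nearest neighbour, divided by the range of the group, was compared with Dixon's critical value in 64 groups, 8 genes by 8 groups. It was passed in 17, of which 16 were at the high end. Chance flags about 1 in 20 groups where values are normally distributed. CPM was used without a log, so skew toward high values would raise that rate. The 64 are also not independent, since genes of 1 library vary together.

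ApoE4 DOXO rat 10 in hippocampus stood apart for all 8 genes. The ratio was 0.852 for Lum, 0.779 for Dcn, 0.960 for Fmod, 0.966 for Slc6a20, 0.654 for Igfbp6, 0.861 for Wisp2, 0.905 for Pappa2 and 0.909 for Fn1. In ApoE3 DOXO cortex, rat 72 stood apart for Lum at 0.564, Fmod at 0.670 and Fn1 at 0.608. Rat 65 was the low library for Igfbp6 there, at 0.534. In ApoE4 DOXO cortex, rat 31 stood apart for Lum at 0.556 and rat 29 for Wisp2 at 0.623. In ApoE3 DOXO hippocampus, rat 47 stood apart for Slc6a20 at 0.750 and Fn1 at 0.680, and rat 66 for Pappa2 at 0.586. All 17 were in DOXO groups, a split that was not tested.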

How the results depend on the processing

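Reported counts and the median correlation of pairs held in all 104 cases that left out 1 library and in 55 of 58 others. A count held within 1.5 times its reported value, and 0 only as 0. The correlation held if it moved by less than the SD over pairs. Of the 104, 16 counted genes below 0 for DOXO in ApoE3 hippocampus, the contrast of the choice, and are no independent check. Most of the rest were counts of 0 that stayed at 0. Genotype in PBS cortex kept 5 in all 16, and region in ApoE4 PBS rats had 3 or 4 in 16. The exceptions were females against males in ApoE3 cortex and sex by treatment in ApoE3 cortex, where 1 gene passed without a filter on low counts, and the median correlation of pairs, 0.53 without centring. With the rat as a replicate block, 4 genes passed between regions in ApoE4 PBS rats, and the log2 change was -0.053 for Fmod and -0.40 for Slc6a20, both turned, and -0.85 for Igfbp6; the block changed no other call. Spike-in scaling turned Slc6a20 to 0.037 and Fn1 to 0.26 in ApoE4 hippocampus, and Igfbp6 to 0.077 in ApoE3 and 0.022 in ApoE4 cortex. Leaving out 1 library turned log2 changes that had not passed. For DOXO in ApoE4 hippocampus the ranges were -0.10 to 0.37 for Lum, -1.59 to 0.077 for Slc6a20, -0.37 to 0.49 for Igfbp6, -0.66 to 0.59 for Wisp2, -0.80 to 0.75 for Pappa2 and -0.54 to 0.069 for Fn1. For DOXO in ApoE3 cortex the range was -0.10 to 0.11 for Pappa2. For genotype in PBS cortex they were -0.13 to 0.11 for Wisp2 and -0.064 to 0.13 for Pappa2, and for region in ApoE4 PBS rats -0.022 to 0.40 for Fmod, -0.45 to 0.20 for Slc6a20 and -0.25 to 0.047 for Fn1. The causes were not tested. Wisp2 and Pappa2 had few counts in hippocampus, which limits their precision.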
